A study of Rattus norvegicus with 12 samples.

Results

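Heat shock proteins and their DnaJ co-chaperones were compared in dorsal root ganglia of rats given vehicle, paclitaxel or oxaliplatin. The genes were chosen by symbol: those starting with Hsp90, or with Hspa, Hspb, Hspd, Hspe, Hsph, Dnaja, Dnajb or Dnajc followed directly by a number. This took 69 of the 20152 genes listed in the 12 libraries, 26 heat shock proteins and 43 J proteins. Of the 69 genes, 66 passed the filter on low counts and were tested, and Dnajb7, Dnajc5b and Hspb9 did not. The dorsal root ganglion holds the cell bodies of sensory neurons with their satellite glia. Paclitaxel, which stabilises microtubules, was given at 2.0 mg/kg from a DMSO stock thinned with saline. Oxaliplatin, a platinum compound that binds DNA, was given at 2.4 mg/kg in glucose solution. Both drugs were injected into the peritoneal cavity to produce neuropathic pain. There was 1 vehicle group, whose solvent is not stated, so a difference from it includes any effect of a solvent it lacked. Each group had 4 libraries. Strain, sex, age, the number of injections, the time of collection and whether each library came from a separate animal are not stated, so the p-values speak only of the spread among these samples, and that spread may be technical.

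Heat shock proteins hold other proteins in a folded or foldable state. HSP70 proteins bind exposed hydrophobic stretches in a cycle driven by ATP, J proteins (DnaJ, or HSP40) deliver clients and stimulate the hydrolysis step, and HSP110 proteins act as the nucleotide exchange factors that release the client. HSP90 receives late folding intermediates such as kinases and steroid receptors, the small heat shock proteins keep unfolded chains soluble without ATP, and Hspd1 with its lid Hspe1 folds proteins in the mitochondrial matrix. Many of the genes are induced by heat shock factor 1 (HSF1), which binds inverted repeats of the letters GAA, while those of the endoplasmic reticulum (ER) answer to the unfolded protein response. Sensory neurons depend on chaperones over the length of the axon, and mutations of Hspb1 and Hspb8 are a known cause of inherited axonal neuropathy.

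Library depth lay between 17008728 and 17615736 estimated counts. All 16 neuronal markers and all 8 satellite glial and 10 Schwann cell markers were listed, with a lowest mean of 8.59 CPM (estimated counts scaled to a common library total) among them. The tissue was bulk RNA, so fewer cells of a type and less RNA per cell cannot be told apart. The library paclitaxel 4 stood apart from the other paclitaxel libraries: its value lay outside the range of paclitaxel 1 to 3 for 49 of the 66 tested chaperone genes (74.2%, against 69.6% of all 15809 tested genes), and for 42 of those 49 it was nearer to the vehicle mean. Over all tested genes it lay outside in 10995 and was nearer to vehicle in 7932 of these. Comparisons with paclitaxel are therefore given with and without it. Below, a gene passed or was called where edgeR's adjusted p was under 0.05 with all libraries, unless another tool or setting is named. Summed neuronal markers were 22710 to 26120 CPM in vehicle, 22680 to 32620 in paclitaxel, with paclitaxel 4 lowest, and 16050 to 20930 in oxaliplatin, below both other groups in every library. Markers of red blood cells summed to 1937 to 3577 CPM in vehicle and 4009 to 13690 in oxaliplatin, with Hba-a2, Hba-a3 and Hbb-bs not listed. Macrophage markers summed to 453 to 791 CPM in vehicle and 204 to 407 in paclitaxel. Neutrophil markers summed to 46.4 to 96.5 and 12.9 to 39.6, and T cell markers to 44.2 to 61.9 and 21.4 to 36.8. Only 2 of the 6 T cell markers passed the filter on low counts. In paclitaxel 1 of these was lower (-0.96 on the log2 scale) and 1 higher (0.07), so the lower sum is not shared by both.

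The 69 genes held 1.23% to 1.45% of the counts of a library, and Hspa8, Hsp90aa1 and Hsp90ab1 together held 54.1% to 56.8% of that share. Levels between genes are compared as FPKM, which is scaled to transcript length. Hspa8, the constitutive HSP70 of the cytosol, had the highest level with a mean of 1555 FPKM over the 12 libraries. Hsp90ab1 followed with 848 FPKM and Hsp90aa1 with 754, and their ranges over the libraries overlapped (747 to 964 and 537 to 972 FPKM). Next came Dnaja1, a cytosolic J protein that works with Hspa8 (256 FPKM), Hspb1 (230), Hspb8 (182), the ER chaperone Hspa5, also called BiP (132), and Hspe1 (114). Hspa1a, the HSP70 that is strongly induced by stress, had a mean of 3.20 FPKM and stood at place 60 of 69, and Hspa1b is not analysed here. The values of 14 genes are uncertain, since their estimated counts had a fractional part in over 6 libraries, which arises where a close copy takes some of the reads: Hsp90aa1, Hsp90ab1, Hspa1a, Hspa1l, Hspa4l, Hspa8, Hspa9, Hspa12a, Dnajb6, Dnajb9, Dnajb13, Dnajc14, Dnajc17 and Dnajc19. Strandedness of the libraries is not stated, so overlapping antisense transcripts cannot be separated either.

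**Figure D1:**
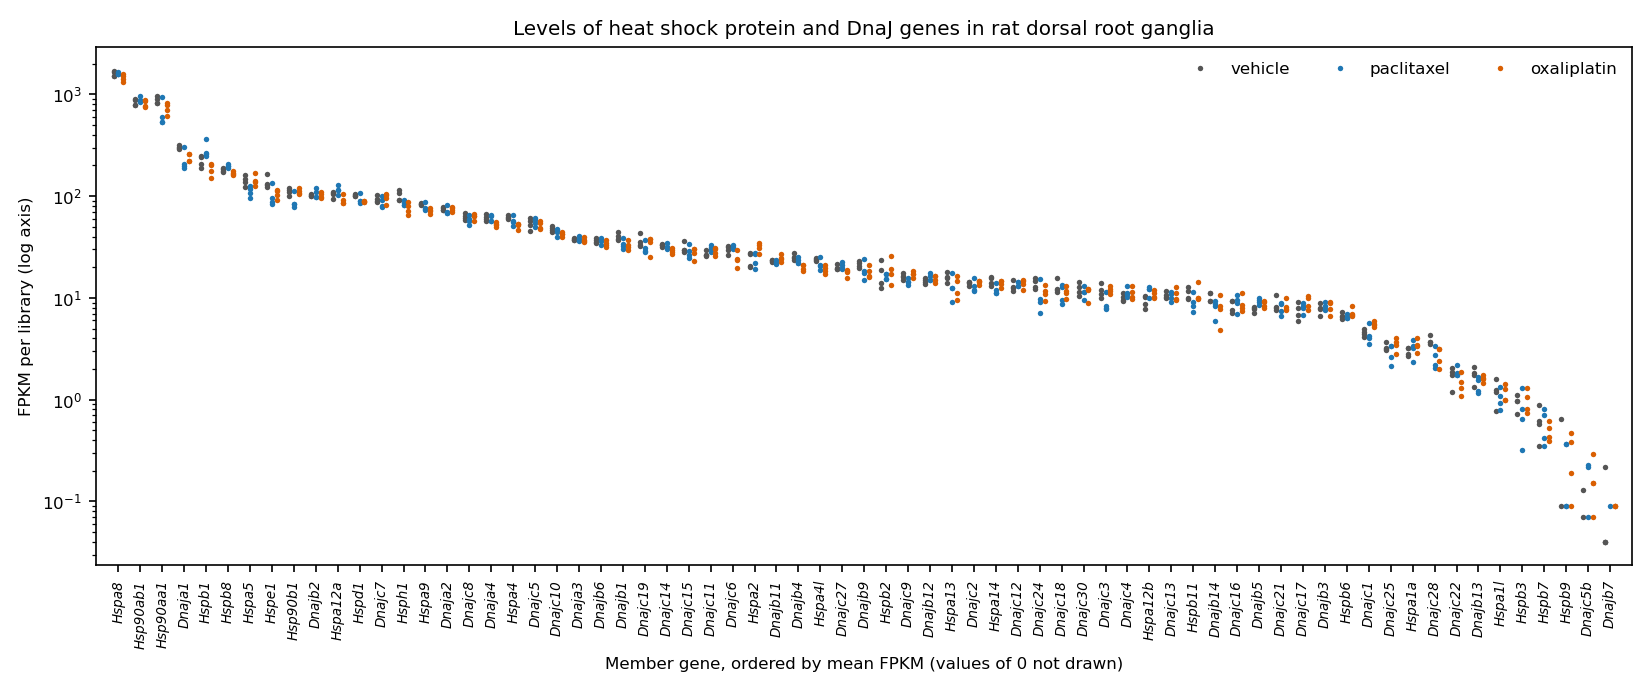
FPKM on a log axis of the 69 genes in each of the 12 libraries (points, coloured by group), ordered by mean FPKM, with values of 0 not drawn. Hspa8, Hsp90ab1 and Hsp90aa1 stand above all others, Hspa1a lies near the low end, and the span within a gene is small beside the span between genes.

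After oxaliplatin, most chaperone transcripts had a lower mean than in vehicle, by small amounts. Of 66 tested genes, 47 (71.2%) had a lower mean than in vehicle, against 48.3% of all tested genes, and the median log2 fold change was -0.10, against 0.01 over all. The test called 2 of them lower, Hsph1 and Dnajb4, where 0.708% of all tested genes were called lower, and 0 higher, where 1.05% were. At an unadjusted p under 0.05 by edgeR, 17 of 66 were lower and 1 higher, against 1274 and 1452 of all 15809. DESeq2 called 10 of 69 lower and 0 higher, where it called 904 of all 20090 genes in either direction. In 16 genes every oxaliplatin library lay below every vehicle library (5.77% of all genes did), and in 0 above (5.54%). Neuronal markers were lower in the same libraries (15 of 16, 2 of them called, Nefl and Nefm), and their part in the result was not tested.

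Between the drugs, 8 chaperone genes were lower in oxaliplatin than in paclitaxel, where 4.71% of all tested genes were: Hspb1, Hspb8, Dnajc6, Hspa12a, Dnajb4, Dnajc27, Dnaja4 and Dnajc14. None was higher by edgeR, where 6.60% of all tested genes were. At an unadjusted p under 0.05 by edgeR, 16 of 66 were lower and 4 higher, against 2189 and 2465 of all 15809. DESeq2 called 14 of 69 lower and 0 higher, where it called 2782 of all 20090 genes in either direction. Voom with quality weights called 17 of 66 lower and 3 higher (Dnajc3, Hsp90b1 and Hspa5), where it called 4726 of all 15809. Limma on log2(FPKM + 1), a scaling by length and library total, called 4 lower and 1 higher (1784 of all 15809 genes). On that scale 34 of 66 means were lower in place of 41. The groups did not overlap in 12 genes, each lower in oxaliplatin (6.12% of all genes), and in 0 the other way (9.17%). Neuronal markers differed in the same direction, with 16 of 16 lower in oxaliplatin and 7 called, and their part was not tested. Without paclitaxel 4, 9 genes were called lower by edgeR (10.5% of all genes tested) and 3 higher (11.2%). By edgeR, those called without paclitaxel 4 but not with all libraries were Dnajc5, lower, and Dnajc1, Dnajc3 and Hsp90b1, higher. With all libraries, voom called Dnajc5, Dnajc3 and Hsp90b1 in the same directions, but not Dnajc1.

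After paclitaxel, 0 of 66 chaperone genes were called against vehicle, where 0.120% of all tested genes were called in either direction. DESeq2 also called 0, where it called 238 of all 20090 genes. Voom with quality weights called 14 of 66 (9 lower and 5 higher), where it called 2017 of all 15809. At an unadjusted p under 0.05 edgeR had 13, 8 lower and 5 higher, or 19.7% against 17.1% of all tested genes. The median log2 fold change was -0.04, against -0.01 over all tested genes. The groups did not overlap in 1 gene that was lower (Dnajc28, where 3.07% of all genes were) and in 2 that were higher (Dnajb5 and Hspb1, where 3.88% were). Without paclitaxel 4, 6 genes were called lower, Dnaja1, Hsp90aa1, Hspe1, Dnajc24, Dnajc3 and Hsp90b1, where 4.45% of all tested genes were, and 3 higher, Hspa12b, Dnajb5 and Dnajc11, where 5.77% were. With all libraries, voom with quality weights called each of these genes too, in the same direction. Without paclitaxel 4, 15 genes did not overlap on the lower side (15.5% of all tested genes) and 9 on the higher side (17.4%).

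**Figure D2:**
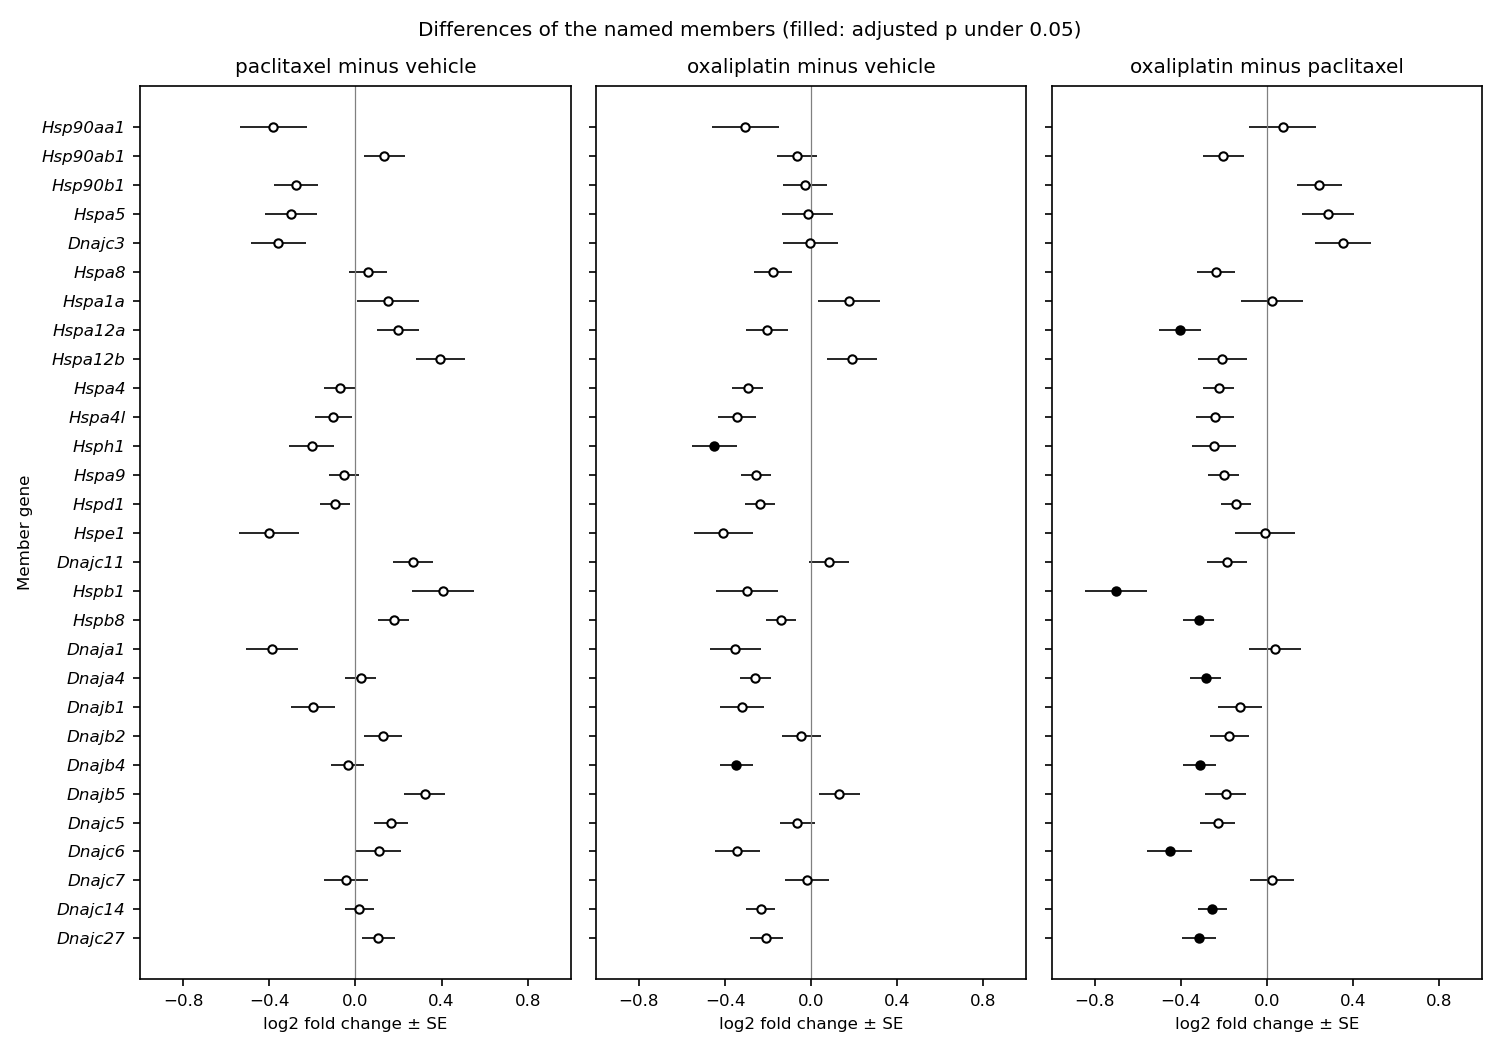
Log2 fold change ± standard error of 29 chaperone genes in the 3 comparisons, with filled points for an adjusted p under 0.05 by edgeR. Filled points are Hsph1 and Dnajb4 for oxaliplatin minus vehicle and 8 genes, all below 0, for oxaliplatin minus paclitaxel, while paclitaxel minus vehicle has none.

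The heat shock element was looked for in the promoters of the genes, taken as 250 bases before to 50 after the transcript start in RefSeq (build GRCr8). Of the 69 genes, 55 were in that table. Hsp90aa1 and Dnajb4 were not, so their promoters were not searched. The search took 3 adjoining units on both strands, GAANNTTCNNGAA or TTCNNGAANNTTC, and separately 2 units, GAANNTTC or TTCNNGAA, which every 3-unit match also contains. The 3-unit form was in 5 of 55 chaperone promoters (9.09%), those of Dnaja1, Hspa8, Hspd1, Hspe1 and Hsph1, and in 0.798% of all 33469 promoters of the table. The 2-unit form was in 15 of 55 (27.3%) and in 15.9% of all. Among the 13994 promoters of tested genes, the 3-unit form was in 0.5% and the 2-unit form in 12.1%. The stretches below are shown because they belong to the genes whose levels are followed through the next paragraphs, with the matching letters in capitals. A match describes these letters and is neither a shown binding site nor a cause.
Hsph1 (chr12:10427308-10427357, + strand): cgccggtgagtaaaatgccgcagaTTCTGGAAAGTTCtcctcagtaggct
Hspe1 (chr9:64084247-64084296, + strand): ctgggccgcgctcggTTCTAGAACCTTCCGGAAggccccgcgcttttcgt
Hspd1 (chr9:64084247-64084287, - strand): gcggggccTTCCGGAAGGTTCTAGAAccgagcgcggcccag
Hspa8 (chr8:50080289-50080324, + strand): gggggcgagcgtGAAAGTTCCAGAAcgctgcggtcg
Hspa8 (chr8:50080444-50080483, + strand): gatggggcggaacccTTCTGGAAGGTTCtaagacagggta
Dnaja1 (chr5:60638209-60638244, + strand): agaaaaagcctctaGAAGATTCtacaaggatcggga
The Hspd1 stretch is part of the Hspe1 stretch on chromosome 9, read from the opposite strand, since these genes lie head to head. The match in Hsph1 lay at positions -36 to -24 from the start, that in Hspe1 at -65 to -48 and those in Hspa8 at -213 to -201 and -55 to -43. The 3-unit match of Dnaja1 lay after its start, at 10 to 22, and the stretch printed for that gene is a 2-unit match before it.

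The genes known as heat-inducible HSF1 targets, numbered 13 among those tested. After oxaliplatin 12 had a lower mean than in vehicle and Hspa1a a higher one, and the median log2 fold change was -0.31. By edgeR 2 were called, Hsph1 and Dnajb4 (0.708% of all tested genes were called lower), and in 9 the oxaliplatin libraries lay below all vehicle libraries (5.77% of all). Neuronal markers were lower in the same libraries, 15 of 16, and their part was not tested. Taken library by library as the median log2 difference from the vehicle mean, the list lay at -0.28, -0.22, -0.32 and -0.25 in oxaliplatin, at -0.13, -0.17, -0.12 and 0.05 in paclitaxel, and at -0.08, -0.04, 0.03 and 0.08 in vehicle. The oxaliplatin libraries were the 4 lowest of the 12. In paclitaxel the first 3 lay below vehicle and paclitaxel 4 within it. Hspa1a, the most inducible HSP70, showed no such pattern: it had 12.1 ± 1.01 CPM (mean ± SD, n = 4) in vehicle, 13.4 ± 2.56 in paclitaxel and 13.7 ± 1.91 in oxaliplatin, and the 3 groups overlapped.

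**Figure D3:**
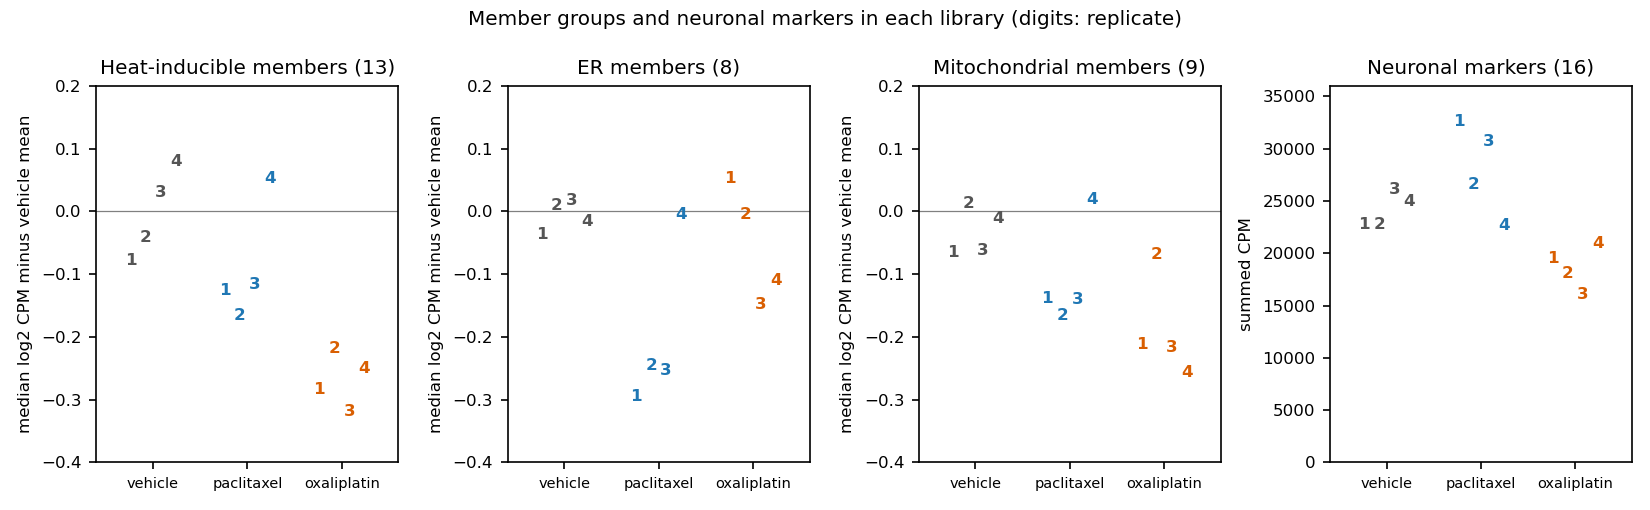
Median log2 CPM minus the vehicle mean over the heat-inducible, ER and mitochondrial chaperone genes, and summed CPM of 16 neuronal markers, in each library (digits give the replicate number). Oxaliplatin lies lowest for the heat-inducible genes, paclitaxel 1 to 3 lie lowest for the ER genes, and paclitaxel 4 lies near vehicle in the first 3 panels.

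All 3 HSP110 genes, the nucleotide exchange factors of HSP70, lay below vehicle after oxaliplatin with no overlap (5.77% of all tested genes did). Hsph1 passed the test, where 0.708% of all tested genes were called lower. Hsph1 (gene ID 288444) had 313, 324, 374 and 399 CPM in the 4 vehicle libraries, 319, 293, 294 and 317 in paclitaxel and 274, 245, 219 and 295 in oxaliplatin. The highest oxaliplatin library was below the lowest vehicle library, while paclitaxel overlapped both. Hsph1 fell by 0.45 ± 0.10 on the log2 scale against vehicle, 1.37-fold lower (adjusted p = 0.0445, edgeR). This call did not hold in 11 of 16 alternatives, among them the loss of any vehicle library and of oxaliplatin 1, 2 or 3, with adjusted p of 0.0358 to 0.153 when 1 library was left out. Hspa4 (gene ID 266759), another HSP110 gene, had 272, 274, 281 and 297 CPM in vehicle and 212, 238, 229.7 and 236 in oxaliplatin, and its difference of -0.30 ± 0.07 did not pass by edgeR (adjusted p = 0.0608). Hspa4l, a paralog of Hspa4 with uncertain counts, had 125, 131, 129 and 135 CPM in vehicle and 93.0, 115, 97.4 and 106 in oxaliplatin, a difference of -0.34 ± 0.09 (adjusted p = 0.0678). DESeq2 called both lower (adjusted p = 0.000849 for Hspa4 and 0.00565 for Hspa4l), as did voom with quality weights (0.0248 and 0.0320). In paclitaxel Hspa4 had 249, 263, 263 and 295 CPM and Hspa4l 109, 117, 120 and 139, with paclitaxel 4 highest for both.

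Among the HSP70 genes of the cytosol and nucleus, 7 were tested and edgeR called 1 with all libraries, Hspa12a between the drugs, where 4.71% of all tested genes were called lower. Hspa8 (gene ID 24468), with the highest level of all, had 3177, 3294, 3511 and 3638 CPM in vehicle, 3798, 3472, 3519 and 3399 in paclitaxel and 3342, 2922, 2689 and 3095 in oxaliplatin. Every oxaliplatin library lay below every paclitaxel library, but the difference of -0.24 ± 0.09 did not pass by edgeR (adjusted p = 0.0952), while it passed by DESeq2 (adjusted p = 0.0156) and voom (adjusted p = 0.0134). The difference of oxaliplatin from vehicle did not pass by edgeR (-0.18 ± 0.09, adjusted p = 0.321). Hspa12a (gene ID 307997), a divergent HSP70 abundant in brain, had 626, 553, 637 and 619.5 CPM in vehicle, 717, 695, 781 and 598 in paclitaxel and 501, 524, 481 and 605 in oxaliplatin. It was lower in oxaliplatin than in paclitaxel by 0.40 ± 0.10 on the log2 scale (adjusted p = 0.0225), with an overlap that came from paclitaxel 4 and oxaliplatin 4. Its relative Hspa12b, known from endothelium, had 34.0, 26.5, 34.4 and 28.7 CPM in vehicle and 43.3, 44.2, 41.9 and 33.2 in paclitaxel. Hspa12b differed by 0.39 ± 0.12 without passing by edgeR (adjusted p = 0.203), and voom called it higher. Voom also called Hspa14, which was lower in paclitaxel (-0.25 ± 0.10 and adjusted p = 0.2515 by edgeR). Without paclitaxel 4, Hspa12b was higher by 0.48 ± 0.11 (adjusted p = 0.0268). Endothelial markers summed to 163 to 236 CPM in vehicle and 156 to 183 in paclitaxel. The call on Hspa12a was lost in 8 of 16 alternatives, among them the loss of paclitaxel 1, 2 or 3 or of oxaliplatin 1, 2 or 3 (adjusted p of 0.0059 to 0.0765 when 1 library was left out).

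None of the 3 HSP90 genes passed by edgeR with all libraries, and at an unadjusted p under 0.05 there were 2 lower for paclitaxel and 0 for oxaliplatin. Hsp90aa1 (gene ID 299331), the inducible cytosolic form, had 2271, 2757, 2522 and 2294 CPM in vehicle, 1618, 1735, 1562 and 2639 in paclitaxel and 1954, 2249, 2103 and 1649 in oxaliplatin. All oxaliplatin libraries and paclitaxel 1 to 3 lay below all vehicle libraries, and paclitaxel 4 lay among them. With all libraries the difference was -0.38 ± 0.16 for paclitaxel (adjusted p = 0.255) and -0.31 ± 0.16 for oxaliplatin (adjusted p = 0.331). Without paclitaxel 4 it was -0.59 ± 0.11 for paclitaxel and passed (adjusted p = 0.0209, edgeR). With all libraries, voom with quality weights called Hsp90aa1 lower in paclitaxel (-0.49, adjusted p = 0.02045). Hsp90ab1, the constitutive cytosolic form, had 1956 ± 135 CPM (mean ± SD, n = 4) in vehicle, 2148 ± 180.4 in paclitaxel and 1868 ± 176 in oxaliplatin, and did not pass in any comparison by edgeR. Voom with quality weights called Hsp90ab1 lower in oxaliplatin than in paclitaxel (adjusted p = 0.0322). Both cytosolic genes have uncertain counts, and the ER form Hsp90b1 is described with the ER genes.

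Of the 9 tested mitochondrial chaperones and J proteins, 8 had a lower mean in oxaliplatin than in vehicle (median -0.19), where 48.3% of all tested genes did. In 4 the groups did not overlap (5.77% of all), and 0 passed (0.708% of all), with 4 lower and 0 higher at an unadjusted p under 0.05 by edgeR. DESeq2 and voom with quality weights each passed Hspa9 and Hspd1. Hspd1 (gene ID 63868), the HSP60 chaperonin, had 224, 231, 236 and 232 CPM in vehicle, 207, 206, 209.5 and 243 in paclitaxel and 199, 199.5, 190.4 and 193 in oxaliplatin. The oxaliplatin values were the lowest and lay within a narrow range, and the difference from vehicle was -0.24 ± 0.07 (adjusted p = 0.104). Its lid Hspe1 (gene ID 25462), which shares the promoter element shown above, had 84.0, 108, 80.1 and 85.2 CPM in vehicle, 66.7, 59.3, 56.1 and 88.6 in paclitaxel and 66.3, 73.6, 71.1 and 58.5 in oxaliplatin. Hspe1 differed from vehicle by -0.41 ± 0.14 after oxaliplatin (adjusted p = 0.151) and by -0.40 ± 0.14 after paclitaxel (adjusted p = 0.228), or -0.56 ± 0.11 without paclitaxel 4 (adjusted p = 0.0254). Hspa9, or mortalin, the HSP70 that pulls proteins into the matrix, had 241, 242, 235 and 234 CPM in vehicle and 187, 200.3, 199 and 209.5 in oxaliplatin (-0.26 ± 0.07, adjusted p = 0.0829, uncertain counts). Dnajc11, a J protein bound to the cristae-organising complex of the inner membrane, went the other way in paclitaxel, with 91.4, 81.6, 80.5 and 71.9 CPM against 64.0, 68.1, 64.3 and 73.9 in vehicle. Its difference was 0.27 ± 0.09 with all libraries (adjusted p = 0.225) and 0.32 ± 0.09 without paclitaxel 4 (adjusted p = 0.0426).

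The small heat shock proteins Hspb1 and Hspb8 were lower in oxaliplatin than in paclitaxel, and both are known as heat-inducible. Hspb1 (gene ID 24471), or HSP27, which binds actin and neurofilaments and is known to rise in injured sensory neurons, had 179, 166, 211 and 213 CPM in vehicle, 333, 222, 237 and 227 in paclitaxel and 179, 151, 125 and 171 in oxaliplatin. All paclitaxel libraries lay above all vehicle libraries, with paclitaxel 1 far above the others, and all oxaliplatin libraries lay below all paclitaxel libraries. Hspb1 was lower in oxaliplatin than in paclitaxel by 0.70 ± 0.14 on the log2 scale, 1.63-fold (adjusted p = 0.0116), and this held in each of the 16 alternatives, with adjusted p up to 0.0394. Against vehicle neither drug passed (0.41 ± 0.14 for paclitaxel, adjusted p = 0.232, and -0.30 ± 0.14 for oxaliplatin, adjusted p = 0.309).

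Hspb8 (gene ID 113906), or HSP22, which works with the co-chaperone Bag3 in selective autophagy, had 309.9, 313, 326 and 340.4 CPM in vehicle, 395, 360.1, 364 and 339 in paclitaxel and 299.7, 289.8, 278 and 302 in oxaliplatin. The oxaliplatin libraries lay below all others, and those of paclitaxel reached above vehicle except for paclitaxel 4. The gene was lower in oxaliplatin than in paclitaxel by 0.32 ± 0.07 on the log2 scale (adjusted p = 0.0168), and of 16 alternatives the call was lost in 1, without oxaliplatin 3 (adjusted p = 0.0549). Against vehicle its differences were 0.18 ± 0.07 for paclitaxel and -0.14 ± 0.07 for oxaliplatin (adjusted p = 0.252 and 0.333). The other small heat shock proteins were not called in any comparison with all libraries, and their mean level was at most 17.5 FPKM (Hspb2). The promoters of both genes held the 2-unit heat shock element only, shown in capitals.
Hspb1 (chr12:26432392-26432441, - strand): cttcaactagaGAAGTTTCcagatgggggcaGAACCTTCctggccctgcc
Hspb8 (chr12:45837268-45837302, + strand): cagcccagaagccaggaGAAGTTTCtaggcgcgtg
In Hspb1 the matches lay at -129 to -122 and -109 to -102 from the start, and in Hspb8 at -23 to -16.

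The list of ER chaperones and J proteins held 8 tested genes and left out Dnajc14, a J protein of the ER membrane. All 8 had a lower mean in paclitaxel than in vehicle (median -0.20). Among these, Dnajb11 and Dnajc1 differed by only -0.00 ± 0.08 and -0.01 ± 0.13, while Dnajc14 differed by 0.02 ± 0.07. In oxaliplatin the median of the 8 was -0.02 with 6 lower and 2 higher, from -0.33 ± 0.18 for Hspa13 to 0.25 ± 0.13 for Dnajc1. By edgeR 0 were called in either comparison, with 3 at an unadjusted p under 0.05 for paclitaxel and 2 for oxaliplatin, each lower. Voom with quality weights passed Dnajc3, Hsp90b1 and Hspa5 for paclitaxel, and DESeq2 passed Dnajc10 for oxaliplatin. Per library, the median log2 difference from the vehicle mean was -0.29, -0.25, -0.25 and -0.01 in paclitaxel and 0.05, -0.01, -0.15 and -0.11 in oxaliplatin, with paclitaxel 4 level with vehicle. The promoters of 3 of these genes held the ER stress element, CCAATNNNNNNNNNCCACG or its reverse complement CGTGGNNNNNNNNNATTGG, which was in 3 of 55 chaperone promoters (5.45%) and in 0.066% of all 33469. Its end blocks alone were common, CCAAT in 40.0% of chaperone promoters and 37.5% of all, and CCACG in 56.4% and 31.6%. Among the 13994 promoters of tested genes, CCAAT was in 36.7%, CCACG in 44.0% and the ER stress element in 0.129%. The stretches are printed, with the element in capitals, because the same 3 genes are followed below.
Hspa5 (chr3:38452956-38453005, + strand): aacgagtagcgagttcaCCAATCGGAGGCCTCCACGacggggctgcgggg
Hsp90b1 (chr7:23012439-23012483, - strand): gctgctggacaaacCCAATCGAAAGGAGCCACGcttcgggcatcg
Hsp90b1 (chr7:23012334-23012378, - strand): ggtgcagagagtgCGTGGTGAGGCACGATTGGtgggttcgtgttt
Dnajc3 (chr15:102432517-102432566, + strand): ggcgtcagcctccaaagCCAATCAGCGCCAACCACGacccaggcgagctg
Hsp90b1 carried the element at -176 to -158 and, in reverse, at -72 to -54, Hspa5 at -43 to -25 and Dnajc3 at -133 to -115.

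Hspa5 (gene ID 25617), the HSP70 of the ER, had 313, 359, 413 and 381 CPM in vehicle, 324, 251, 286 and 328 in paclitaxel and 437, 345, 315 and 352 in oxaliplatin, and the groups overlapped. Hsp90b1 (gene ID 362862), or GRP94, the HSP90 of the ER, had 277, 330.1, 336 and 307 CPM in vehicle, 249.9, 241, 229 and 313 in paclitaxel and 336, 307, 287 and 295 in oxaliplatin. Dnajc3 (gene ID 63880), an ER J protein that inhibits kinases of the translation factor eIF2, had 17.8, 15.3, 21.1 and 16.5 CPM in vehicle, 12.6, 12.96, 12.5 and 17.1 in paclitaxel and 17.5, 19.5, 17.6 and 15.9 in oxaliplatin. For Hsp90b1 and Dnajc3, paclitaxel 1 to 3 lay below every other library and paclitaxel 4 lay among vehicle and oxaliplatin. With all libraries the paclitaxel difference from vehicle was -0.30 ± 0.12 for Hspa5, -0.28 ± 0.10 for Hsp90b1 and -0.36 ± 0.13 for Dnajc3 (adjusted p = 0.252, 0.239 and 0.236). Without paclitaxel 4, Hsp90b1 at -0.38 ± 0.09 and Dnajc3 at -0.48 ± 0.12 passed (adjusted p = 0.0276 and 0.0336) and Hspa5 at -0.35 ± 0.13 did not (adjusted p = 0.0832). Without that library, oxaliplatin was also above paclitaxel by 0.35 ± 0.09 for Hsp90b1 and 0.47 ± 0.12 for Dnajc3 (adjusted p = 0.0146 and 0.0159). Fibroblast markers were also lower in paclitaxel (8 of 8 means), at 2055 to 2616 CPM in sum against 2545 to 3652 in vehicle. With all libraries 0 of them were called, and without paclitaxel 4, 4 were called lower, where 4.45% of all genes tested were. In oxaliplatin the fibroblast markers summed to 3339 to 4142 CPM, with 7 of 8 means above vehicle. There Hspa5, Hsp90b1 and Dnajc3 differed from vehicle by -0.02 ± 0.12, -0.03 ± 0.10 and -0.00 ± 0.13. Satellite glial markers were lower in paclitaxel too (8 of 8 means, 0 called, 3 called without paclitaxel 4), and 6 of 8 were lower in oxaliplatin. The part of either set of markers was not tested.

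**Figure D4:**
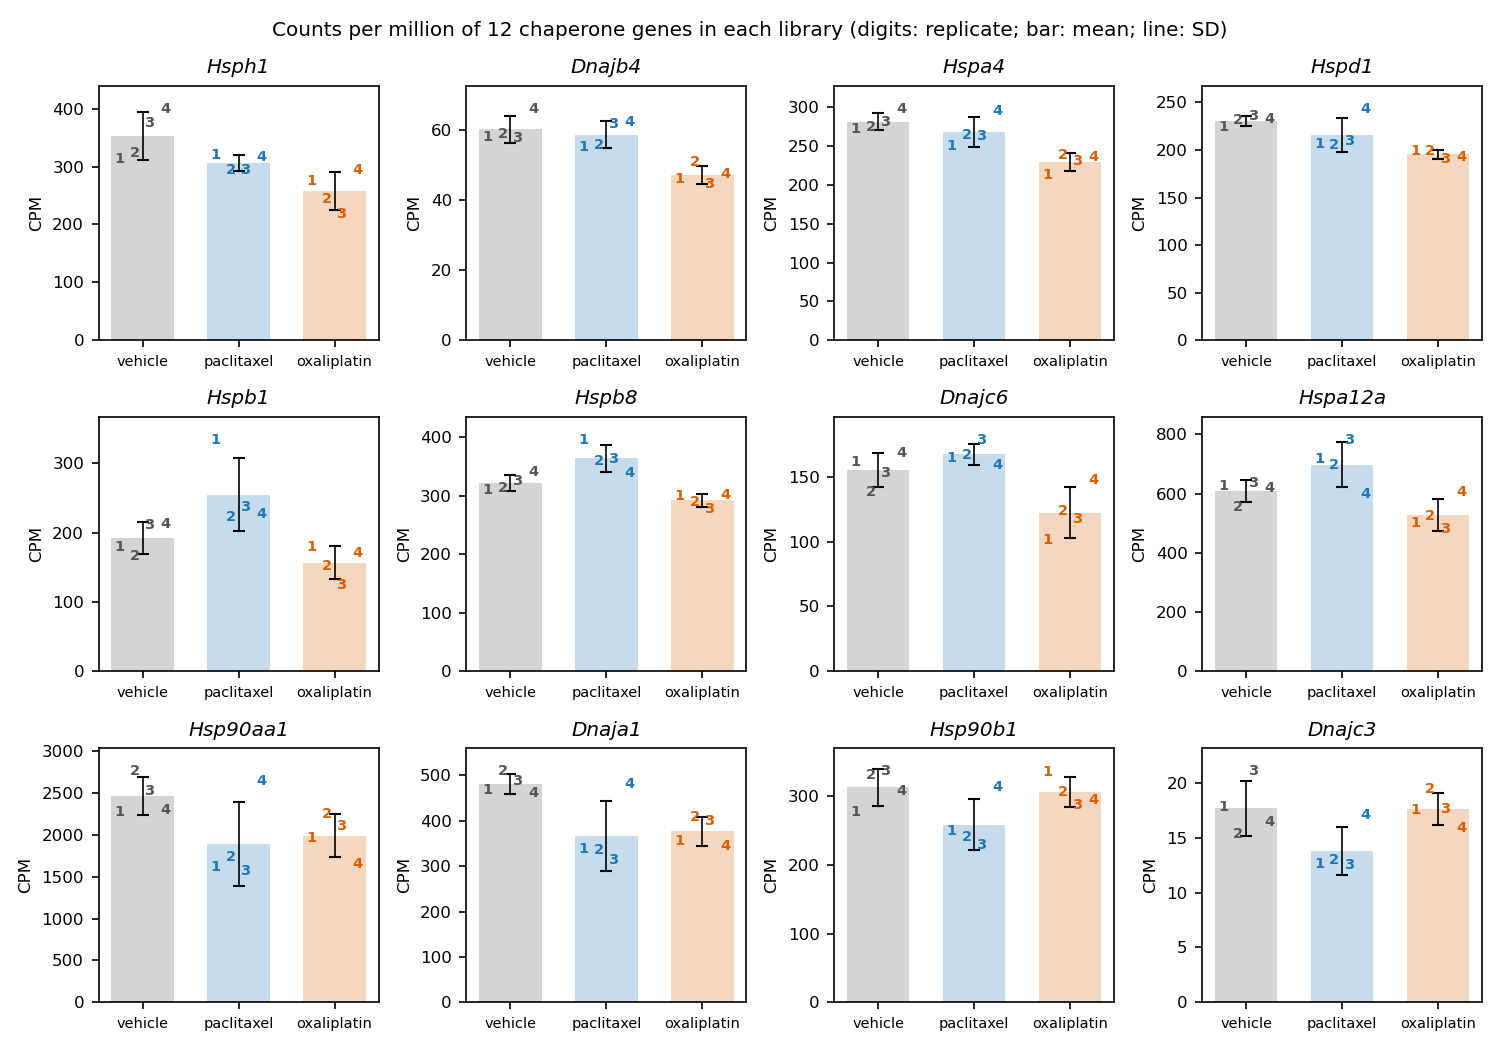
CPM of 12 chaperone genes in each library, with bars for group means, lines for 1 SD and digits for the replicate number, on axes from 0. The oxaliplatin mean is lowest in the first 8 panels, and paclitaxel 4 stands above paclitaxel 1 to 3 and level with vehicle for Hsp90aa1, Dnaja1, Hsp90b1 and Dnajc3.

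Of 41 tested J proteins, 28 had a lower mean in oxaliplatin than in vehicle and 1, Dnajb4, passed by edgeR, where 0.708% of all tested genes were called lower. DESeq2 called Dnaja4, Dnajb4, Dnajc6, Dnajc10 and Dnajc14 lower, and voom with quality weights called Dnajb4, Dnajc6 and Dnajc14. Dnajb4 (gene ID 295549), a cytosolic class B J protein close to Dnajb1, had 57.9, 58.8, 57.6 and 65.8 CPM in vehicle, 55.0, 55.5, 61.5 and 62.2 in paclitaxel and 46.0, 50.6, 44.6 and 47.3 in oxaliplatin. The oxaliplatin libraries lay below all 8 others. Dnajb4 fell by 0.35 ± 0.08 on the log2 scale against vehicle (adjusted p = 0.0366, edgeR) and was lower than in paclitaxel by 0.31 ± 0.08 (adjusted p = 0.0229). The call against vehicle was lost in 10 of 16 alternatives, among them the loss of any vehicle library and of oxaliplatin 1, 3 or 4 (adjusted p of 0.048 to 0.136 when 1 library was left out), and that against paclitaxel in 5, among them the loss of paclitaxel 3 or oxaliplatin 3 (0.0246 to 0.0740). Dnajb1, the best known partner of inducible HSP70, had 79.8, 84.7, 97.1 and 89.8 CPM in vehicle and 72.0, 68.5, 62.5 and 78.3 in oxaliplatin, without overlap and without passing (-0.32 ± 0.10, adjusted p = 0.129). Dnajb5, of the same class, was highest in paclitaxel, with 27.9, 24.6, 26.0 and 22.6 CPM against 20.9, 18.8, 19.9 and 21.3 in vehicle. Its difference of 0.32 ± 0.09 did not pass (adjusted p = 0.203), and without paclitaxel 4 it was 0.37 ± 0.10 (adjusted p = 0.0356).

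The class A gene with the highest level, Dnaja1 (gene ID 65028), had 467, 509, 487 and 460.4 CPM in vehicle, 338, 335, 314 and 481 in paclitaxel and 355, 409, 399 and 344 in oxaliplatin. Paclitaxel 1 to 3 and all oxaliplatin libraries lay below all vehicle libraries, and paclitaxel 4 lay among vehicle, the same arrangement as for Hsp90aa1. Its difference from vehicle was -0.35 ± 0.12 after oxaliplatin (adjusted p = 0.152) and -0.39 ± 0.12 after paclitaxel (adjusted p = 0.210). Without paclitaxel 4 the paclitaxel difference was -0.55 ± 0.08 and passed (adjusted p = 0.0115). Dnaja4, another class A gene, had 119, 116, 110 and 130.3 CPM in vehicle, 117, 126, 114 and 126 in paclitaxel and 95.4, 101, 97.0 and 104 in oxaliplatin, the last below all others. Dnaja4 was lower in oxaliplatin than in paclitaxel by 0.28 ± 0.07 on the log2 scale (adjusted p = 0.0260), and the call was lost in 7 of 16 alternatives, among them the loss of paclitaxel 2 or of oxaliplatin 1, 2 or 3 (adjusted p of 0.0233 to 0.0798 when 1 library was left out).

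The 6 J proteins listed for places at synapses and in axons were Dnajc5, Dnajc6, Dnajc13, Dnajb2, Dnajb6 and Dnaja1, a list not limited to neurons. All 6 had a lower mean in oxaliplatin than in vehicle (median -0.09). In paclitaxel 5 had a higher mean than in vehicle (median 0.08), and Dnaja1 a lower one. Dnajc6 (gene ID 313409), auxilin, which strips clathrin from newly formed vesicles in neurons, had 161, 138, 153 and 169 CPM in vehicle, 165, 167, 178 and 159 in paclitaxel and 101, 124, 117 and 148 in oxaliplatin. Every oxaliplatin library lay below every paclitaxel library, while oxaliplatin 4 lay within vehicle. Dnajc6 was lower in oxaliplatin than in paclitaxel by 0.45 ± 0.10 on the log2 scale, 1.37-fold (adjusted p = 0.0183), a call that was lost in 2 of 16 alternatives, without paclitaxel 3 (adjusted p = 0.061) and without oxaliplatin 3 (adjusted p = 0.0552). Dnajc5, the cysteine string protein of synaptic vesicles, had 274, 251, 263 and 281 CPM in vehicle, 301, 321, 319 and 257 in paclitaxel and 258, 247, 249.5 and 268 in oxaliplatin. Between the drugs Dnajc5 did not pass by edgeR with all libraries (-0.23 ± 0.08, adjusted p = 0.0799) and passed without paclitaxel 4 (-0.30 ± 0.07, adjusted p = 0.0120). With all libraries it passed by DESeq2 (adjusted p = 0.0173) and by voom with quality weights (adjusted p = 0.00528). Dnajb2, a neuronal J protein that binds ubiquitin chains, had 253 ± 9.37, 276 ± 36.1 and 245 ± 14.6 CPM in vehicle, paclitaxel and oxaliplatin and was not called. Dnajc6, Dnajc5 and Dnajb2 are known from neurons, and the neuronal marker sums given above differ between the same groups, a part that was not tested.

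The other class C genes called were Dnajc27 and Dnajc14, each lower in oxaliplatin than in paclitaxel. Dnajc27, a small GTPase of the Rab type with a J domain, had 87.8, 89.0, 91.0 and 98.7 CPM in vehicle, 95.3, 107, 101 and 90.7 in paclitaxel and 71.6, 80.7, 82.7 and 82.1 in oxaliplatin (-0.32 ± 0.08, adjusted p = 0.0230). Dnajc14, a J protein of the ER membrane with uncertain counts, had 94.8, 88.9, 91.6 and 92.8 CPM in vehicle, 103, 90.7, 92.1 and 87.4 in paclitaxel and 76.5, 79.1, 76.0 and 81.2 in oxaliplatin (-0.25 ± 0.07, adjusted p = 0.0311). For both, oxaliplatin lay below the other groups without overlap. The call on Dnajc27 was lost in 5 of 16 alternatives, among them the loss of paclitaxel 2 or 3 (adjusted p of 0.00892 to 0.0749 when 1 library was left out), and that on Dnajc14 in 10, among them the loss of any 1 of paclitaxel 1 to 3 or oxaliplatin 1 to 3 (0.0134 to 0.0849). Dnajc7, which had the highest level of class C and bridges HSP70 and HSP90, had 166 ± 15.6, 161 ± 16.4 and 164 ± 18.8 CPM in vehicle, paclitaxel and oxaliplatin, closer than the spread between libraries. Dnajc24, which takes part in the diphthamide modification of elongation factor, differed from vehicle by -0.60 ± 0.15 without paclitaxel 4 (adjusted p = 0.0353) and by -0.37 ± 0.19 with it (adjusted p = 0.319).

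**Figure D5:**
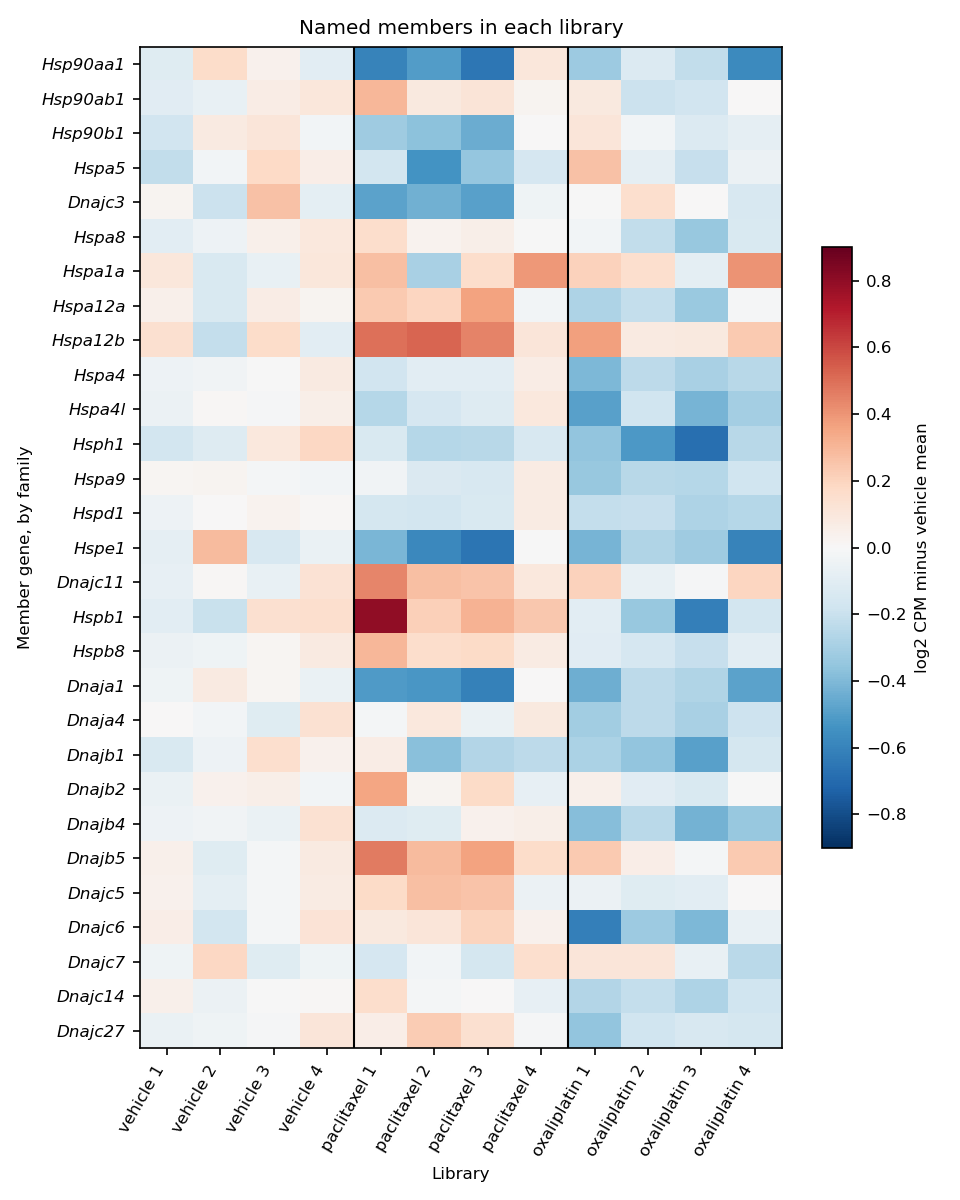
Log2 CPM of 29 chaperone genes in each library minus the mean of the vehicle libraries (colour scale), grouped by family, with black lines between the groups of libraries. Blue (lower than vehicle) fills most of the oxaliplatin columns, with Hspa1a, Hspa12b and Dnajb5 mostly red and Dnajc11 and the ER genes mixed. In paclitaxel 1 to 3 blue and red differ by gene, and most cells of paclitaxel 4 are paler.

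Other genes of the chaperone network were read from the same fit. Of 6 heat shock factors and partners, 0 were called in any comparison by edgeR with all libraries (1 lower and 1 higher at an unadjusted p under 0.05 for paclitaxel, 1 lower for oxaliplatin, 0 between the drugs), and Hsf1 had 41.9 ± 4.90, 44.1 ± 7.68 and 45.1 ± 3.79 CPM in vehicle, paclitaxel and oxaliplatin. Without paclitaxel 4, Hsf4, another heat shock factor, was higher in paclitaxel than in vehicle (0.46 ± 0.13, adjusted p = 0.0429) and lower in oxaliplatin than in paclitaxel (-0.41 ± 0.13, adjusted p = 0.0397). Of 30 co-chaperones without a J domain, 28 had a lower mean in oxaliplatin than in paclitaxel (median -0.16) and 1 passed (4.71% of all tested genes were called lower). Without paclitaxel 4, 5 were called lower (10.5% of all genes tested) and 1 higher (11.2%) between the drugs. In paclitaxel against vehicle, 2 were then called lower (4.45% of all genes tested) and 4 higher (5.77%). The gene called with all libraries was Bag3, the partner of Hspb8, with 177, 119, 142 and 107 CPM in paclitaxel and 91.5, 82.4, 85.6 and 104 in oxaliplatin (-0.58 ± 0.14, adjusted p = 0.0221). Chordc1, an HSP90 co-chaperone, had 62.7, 68.5, 67.1 and 72.8 CPM in vehicle and 47.0, 53.9, 49.7 and 47.1 in oxaliplatin, just outside the threshold (-0.46 ± 0.11, adjusted p = 0.0546). Of 14 genes of the cytosolic chaperonin CCT and of prefoldin, 12 had a lower mean in oxaliplatin than in vehicle (median -0.11) and Cct6a, a CCT subunit, fell by 0.31 ± 0.07 on the log2 scale (adjusted p = 0.0438). Of 19 further ER folding and stress genes, Ddit3, the stress transcription factor CHOP, rose in oxaliplatin from 32.2 ± 3.57 to 57.4 ± 12.3 CPM (0.84 ± 0.15, adjusted p = 0.0186, uncertain counts). Creld2, an ER stress protein, was higher in oxaliplatin than in paclitaxel (0.64 ± 0.17, adjusted p = 0.0307), as was Ddit3 (0.56 ± 0.15, adjusted p = 0.0319).

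Serpinh1, or HSP47, the collagen chaperone of the ER, was higher in oxaliplatin than in paclitaxel by 0.51 ± 0.15 (adjusted p = 0.0424). None of the 12 mitochondrial folding factors and proteases outside the symbol rule was called by edgeR with all libraries (1 lower and 3 higher at an unadjusted p under 0.05 for paclitaxel, 0 and 1 for oxaliplatin, 3 and 0 between the drugs). Over all tested genes, 17.1%, 17.2% and 29.4% had such a p in these comparisons, in either direction. Without paclitaxel 4, 1 of the 12 was called lower (4.45% of all genes tested) and 1 higher (5.77%) in paclitaxel against vehicle. Between the drugs, 2 were then called lower (10.5%) and 1 higher (11.2%). Several heat shock genes are known to cycle with the body clock and with temperature. Of 18 tested clock genes, 8 rose (1.05% of all tested genes were called higher) and 1 fell (0.708% lower) in oxaliplatin against vehicle, among them Dbp, a clock output factor (1.81 ± 0.18, adjusted p = 0.000355), and Arntl, the clock activator that fell (-0.63 ± 0.14, adjusted p = 0.0385). The hour of tissue collection is not stated, and the part of the clock in the chaperone values was not tested. The temperature-linked RNA-binding proteins Cirbp and Rbm3 were not called, with 0.16 ± 0.13 and 0.22 ± 0.18 after oxaliplatin (adjusted p = 0.588 and 0.562).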

How the data were processed

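Estimated counts and FPKM per gene were taken from the authors' table for each of the 12 libraries. Per the file headers, the deposited values are expected counts, fractional where a read matching several genes was divided among them, and FPKM, which the authors scaled to transcript length and library total. CASAVA 1.4 and Bowtie2 are named per the submitters' processing notes, and the quantifier, genome build and strandedness are not given in the sources used here. Listed FPKM values start at 0.01, and genes missing from a library's table were taken as 0. Of 20152 gene IDs, 18549 were found in the RefSeq gene table (GRCr8), which was used for names: 27 symbols had been turned into dates, 32 were shared by several IDs and 30 genes were renamed from it.

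Groups and replicate numbers came from the sample titles. Counts were rounded and tested with edgeR 4.0.16 (R 4.3.3), using TMM scaling, the default filter on low counts (15809 genes tested, at least 99.9% of counts kept in each library) and the robust quasi-likelihood F test over all 12 libraries, with 9 residual degrees of freedom. The p-values were adjusted by Benjamini-Hochberg over all tested genes, and adjusted values under 0.05 were called. Standard errors are the log2 fold change divided by the root of F. Alternatives were other size factors, no filter, DESeq2 1.42.0, limma 3.58.1 (voom with quality weights, or log2(FPKM + 1) and log2(FPKM + 0.1)), a replicate block, only the 2 groups compared, and each library left out in turn. No 2 replicates agreed within sampling noise (chi-square per gene of 8.07 to 44.9 over genes with a summed count of at least 50).

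Depth was 17008728 to 17615736 counts per library. On simulated data, edgeR recovered 81% of 2-fold and 98% of 4-fold changes for paclitaxel minus vehicle (15687 genes), 81% and 95% for oxaliplatin minus vehicle (15673), and 84% and 100% for oxaliplatin minus paclitaxel (15668), with 3.76%, 4.86% and 3.16% of calls on unchanged genes. The differences of the tested chaperone genes were all smaller than 2-fold, and changes of that size were not simulated. A library set apart like paclitaxel 4 was not simulated either. The recovery rates therefore do not apply to the chaperone differences. The members and lists were chosen with earlier results of these data known. Genes were named if called, among the 8 smallest p in a comparison, highest in FPKM within a role, or well known members. Genes called only without paclitaxel 4, or given as a contrast, were named after their values were seen. The ER stress element was added to the promoter search after the files were seen. Protein sequence features were not analysed here.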

Additional observations from a re-analysis of the deposited data

Results flagged for a closer look

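Within groups of 4 libraries, 6 of 87 gene and group combinations had 1 library far from the other 3 by Dixon's test, where chance gives about 1 in 20, or 4.35. In paclitaxel, the library paclitaxel 4 was the high one for Dnaja1 (481.1 CPM, the others 314.4 to 337.8), Dnajc3 (17.07, the others 12.48 to 12.96), Hsp90aa1 (2639, the others 1562 to 1735) and Hspd1 (243.0, the others 205.5 to 209.5). Paclitaxel 1 was high for Hspb1 (333.2 CPM, the others 221.8 to 237.1). Vehicle 4 was high for Dnajb4 (65.8 CPM, the others 57.59 to 58.77).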

How the results depend on the processing

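The count of chaperone genes called after paclitaxel was 0 by edgeR (19 of all 15809 tested genes were called). It stayed 0 with other size factors, without the filter on low counts, with DESeq2, on either FPKM scale and with the replicate block. With voom and quality weights it was 14 (2017 of all 15809). For oxaliplatin against vehicle the count was 2 (278 of all 15809 tested genes were called). It became 10 with DESeq2 (904 of 20090 genes) and 8 with voom (599 of 15809). It was 1 on log2(FPKM + 1) (330 of 15809) and 0 on log2(FPKM + 0.1) (255 of 15809). It was also 0 with the replicate block (72 of 15809) and with only the 2 groups fitted (161 of 15615). Between the drugs the count was 8 (1788 of all 15809 tested genes were called). It became 14 with DESeq2 (2782 of 20090 genes) and 20 with voom (4726 of 15809). It was 5 on both FPKM scales (1784 and 1719 of 15809). It was 3 with only the 2 groups fitted (1016 of 15554) and 6 with the replicate block (986 of 15809). Leaving out 1 library in turn gave 0 to 9, 0 to 2 and 2 to 12 calls in the 3 comparisons, the 9 and the 12 without paclitaxel 4 and the 2 of the last without oxaliplatin 3. Of all 15950 genes tested without paclitaxel 4, 1631 were called for paclitaxel against vehicle and 3463 between the drugs. Without oxaliplatin 3, 571 of 15924 were called between the drugs. Replicate numbers did not pair the samples: correlations of same-numbered libraries ran from -0.2316 to 0.1565. For Hspa1a after paclitaxel the log2 difference turned to -0.0387 with voom, and the cause was not tested. Single-gene values were checked only for the 29 chaperone genes in the plot of log2 fold changes, where the difference reached its standard error. Values not checked include Hspa5, Hsp90b1 and Dnajc3 after oxaliplatin, and Hspa13, Dnajc1 and Dnajc24, which are not among the 29. Apart from Hspa1a after paclitaxel, the values checked kept their direction in the alternatives run. Over these genes and settings a call was lost 38 times between the drugs and 21 times for oxaliplatin. A call was gained 22, 14 and 19 times (between the drugs, oxaliplatin, paclitaxel). The log2(FPKM + pseudocount) scale understates changes of low genes.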

Other observations

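The ratio of Hsp90aa1 to Hsp90ab1, the inducible and the constitutive cytosolic HSP90, was computed per library from FPKM, with uncertain counts for both genes. The ratio was 1.04, 1.24, 1.03 and 0.912 in vehicle, 0.561, 0.696, 0.616 and 1.11 in paclitaxel, and 0.787, 1.097, 1.01 and 0.703 in oxaliplatin. Paclitaxel 1 to 3 had the 3 lowest values of the 12 libraries, paclitaxel 4 lay within the range of vehicle, and oxaliplatin overlapped both.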
